A study of Arabidopsis thaliana with 84 samples.

Results

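Roots take up nitrate as their main inorganic nitrogen source, reduce it to ammonium and assimilate the ammonium into glutamine through glutamine synthetase. Nitrate is also a signal: within hours it changes transcript levels of genes of its own uptake and assimilation, of sugar metabolism and of transcription factors, and part of this response depends on the products of assimilation. The outer layers of the root (lateral root cap, epidermis, cortex) meet the medium, while endodermis, pericycle and stele pass nitrogen on to the shoot, so a transcript that is lower in nitrate in all of them is of interest for a response that the tissues share.

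The loci described here are 100 Arabidopsis thaliana loci that carry no gene symbol in the array annotation, only a locus code, and whose mean signal was lower in nitrate than in KCl in each of 5 sorted root cell populations. They were chosen from 11929 probe sets that the annotation assigns to 1 such locus, among 22810 probe sets on the array. Of the 11929, 175 (1.47%) had a nitrate mean under the KCl mean in all 5 populations and 391 (3.28%) had one over it in all 5. In single populations the share under KCl was 49.7% in lateral root cap, 45.4% in epidermis with cortex and 47.6% in endodermis with pericycle. It was 50.7% in pericycle and 41.7% in stele. Whether 175 differs from the number that unrelated signs in the 5 populations would give was not tested. The 100 with the most negative mean difference over the 5 populations were taken, with 4 loci named in the rule left out. Because the choice used those differences, all values from these 45 arrays that compare nitrate with KCl are given as a description, without a test. The last locus inside the limit was AT5G12420 with a mean difference of -0.27 on the log2 scale, and the first outside it was AT3G42725 with -0.26, so the limit falls in a dense range of values.

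The study used 84 Affymetrix ATH1 arrays in 28 groups of 3 biological replicates, from 12-day-old seedlings with the genetic background Col-0, grown hydroponically with ammonium succinate as their nitrogen supply. At dawn roots received 5 mM KNO3 or, as control, 5 mM KCl, for 2 h. Cell walls were then digested with enzymes, and nitrate was either kept in the digestion solution (continuous treatment) or left out of it (transitory treatment). Fluorescence-activated sorting gave the populations lateral root cap (LRC), epidermis with cortex (EpiC), endodermis with pericycle (EndoP), pericycle (Peri) and stele (Stele), each in transitory nitrate, continuous nitrate and KCl. The reporter lines behind the sorts are not named in the sources used here. In Peri, 3 further groups received methionine sulfoximine (MSX), an inhibitor of glutamine synthetase, at 1 mM: KNO3 with MSX and glutamine (Gln, 5 mM), KNO3 with MSX, and KCl with MSX. The titles of these 3 groups read continuous treatment. Comparisons with MSX are therefore of continuous nitrate alone, while the differences that chose the loci pool transitory and continuous nitrate. The other groups were protoplasts that were digested but not sorted (transitory nitrate, continuous nitrate, KCl), whole roots frozen after 2 h or 3.5 h (nitrate, KCl), and whole roots incubated in the digestion solution without enzymes (transitory nitrate, continuous nitrate, KCl).

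All values are log2 array signals, so that a difference of 1 is a doubling. Sorted cells were amplified by a two-cycle protocol (54 arrays, quantile normalized here) and the other samples by a one-cycle protocol (30 arrays, used as deposited), and levels are not compared between the protocols. The number of arrays limits the precision. Of the one-cycle arrays, 5 had a median rank correlation with the other one-cycle arrays below 0.7 and were left out: replicate 1 of the whole roots in KCl at 2 h, replicates 1 and 2 of the incubated roots in continuous nitrate, and replicates 1 and 2 of the incubated roots in KCl. Of the sorted arrays, replicate 1 of EndoP in transitory nitrate (0.50), replicate 1 of LRC in continuous nitrate (0.62) and replicate 1 of LRC in KCl (0.67) were below 0.7 among the sorted arrays and were kept. Without the first pair of these 68 of the 100 loci would still have been chosen, and without the LRC array in KCl 80 would. Groups follow the sample titles; for EpiC a further label, the source name, reads continuous nitrate on all 9 arrays, KCl ones included, so the EpiC treatments rest on the titles. The populations were checked against marker genes that the annotation names. Of 3 cortex markers AED3 was highest in EpiC at 7.29, but CO2 was highest in LRC (6.41, with 6.06 in EpiC) and JKD in Peri (8.12, with 7.56 in EpiC). The endodermis marker GSO1 was 8.33 in EndoP, 8.46 in Peri and 8.19 in EpiC, against 7.70 in Stele and 6.64 in LRC, so it barely set EndoP apart from EpiC. Of the markers of the vascular cylinder OCT1 was highest in Peri at 8.85, and LHW lay between 10.43 and 10.47 in EndoP, Peri and Stele and reached 10.09 in EpiC. The root hair marker EXPA7 went against the label, with 6.58 in EpiC as the lowest of its 5 means and 8.83 in EndoP. None of 3 root cap markers could be looked up by name. Of 4 epidermis markers 1 could be, of 4 endodermis markers 1, and of 6 stele and pericycle markers 2, so the check is partial.

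The 100 probe sets stand for 100 different loci, all protein-coding in RefSeq, on chromosomes 1 to 5 (19, 16, 26, 16 and 23 loci). Only 3 have a descriptive synonym there. AT1G74470 is geranylgeranyl reductase, which makes the side chain precursor of chlorophylls and tocopherols. AT3G13610 is F6'H1, feruloyl-CoA 6'-hydroxylase, the enzyme that opens the route to coumarins, which roots release when iron is scarce. AT2G31370 is PosF21, a bZIP transcription factor. For the other loci no role is given in the annotation used here, and AT5G23830 and AT5G23840 are the only pair of neighbouring genes among them. The probe sets of AT3G32030 and AT3G26070 are of a type that can match several transcripts.

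Of the 100 loci, chosen on these arrays, AT5G55050 alone had all nitrate arrays below all KCl arrays in each of the 5 populations. The matching share of all symbol-free probe sets is not given here. In LRC the signal of AT5G55050 was 6.92, 7.98 and 6.40 in transitory nitrate and 6.14, 7.78 and 6.18 in continuous nitrate, against 8.66, 9.37 and 8.56 in KCl. In EpiC it was 6.89, 6.79 and 6.15 in transitory nitrate and 7.53, 7.65 and 6.73 in continuous nitrate, against 9.05, 9.30 and 8.79 in KCl. In both outer populations the KCl arrays were the highest of the sorted arrays without MSX, and the groups did not overlap. In EndoP it was 6.44, 6.05 and 6.04 in transitory nitrate and 6.31, 6.39 and 6.34 in continuous nitrate, against 6.53, 6.49 and 6.92 in KCl. Here the gap between the groups was narrow. In Peri the values were 6.50, 6.64 and 6.20 in transitory nitrate and 6.24, 6.42 and 6.37 in continuous nitrate, against 7.04, 6.93 and 7.18 in KCl. In Stele they were 6.004, 6.15 and 5.86 in transitory nitrate and 6.16, 5.97 and 5.87 in continuous nitrate, against 6.93, 7.0003 and 6.53 in KCl. The mean difference was thus -1.97 in LRC, -2.09 in EpiC, -0.38 in EndoP, -0.65 in Peri and -0.82 in Stele. The KCl mean was 8.86 in LRC and 9.05 in EpiC, against 6.64 in EndoP, 7.05 in Peri and 6.82 in Stele. The 2 outer populations had both the larger differences and the higher KCl means, and the KCl mean is itself part of the difference. Among the inner populations the order did not hold, Stele having a larger difference than Peri and a lower KCl mean.

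**Figure D1:**
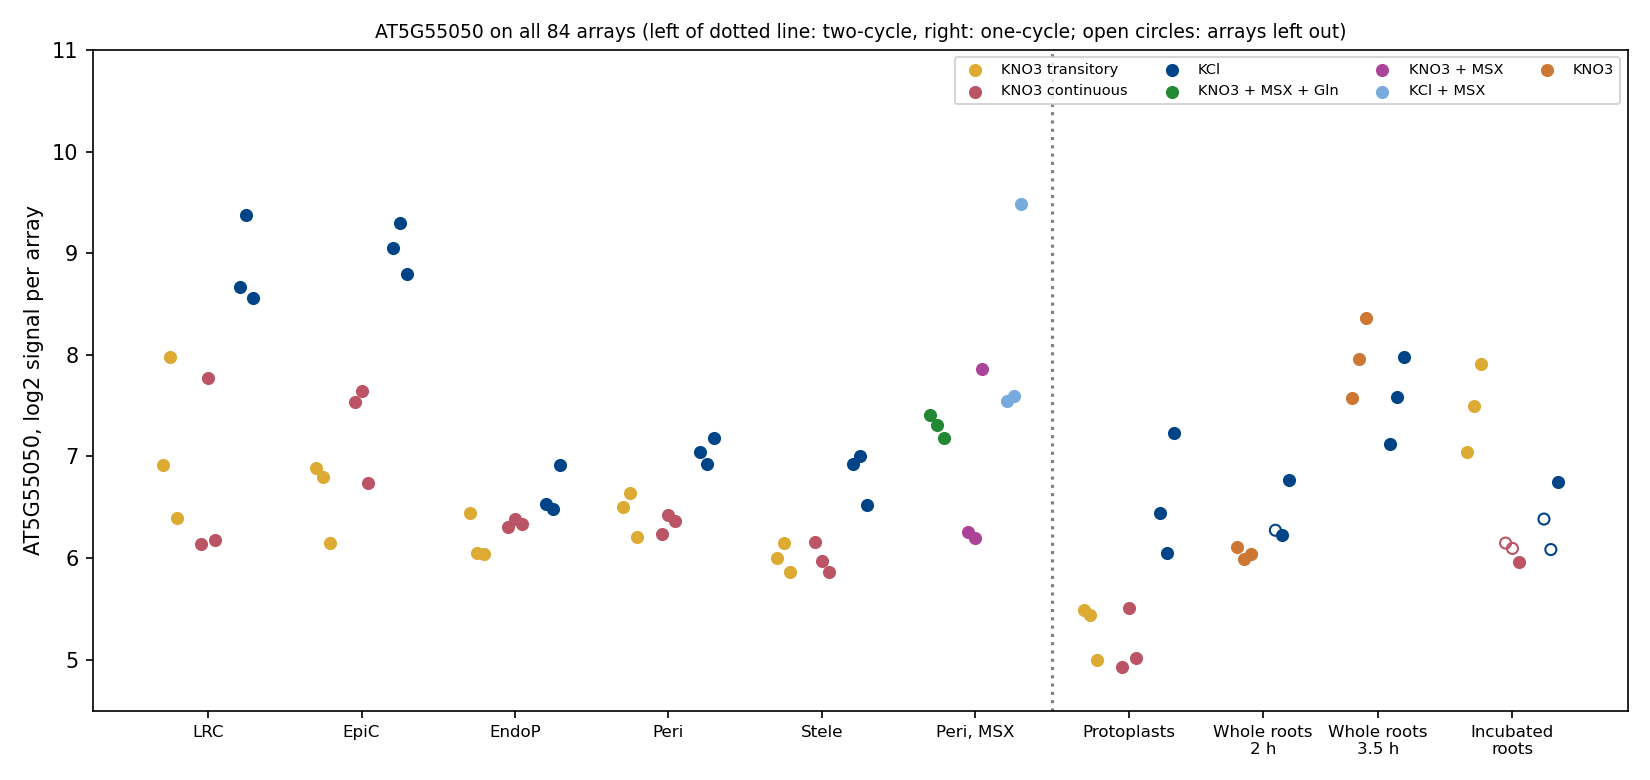
Signal of AT5G55050 (log2) on each of the 84 arrays, grouped by population or preparation on the x axis, with nitrate groups left of KCl; open circles are the 5 one-cycle arrays left out. In the 5 sorted populations without MSX and in protoplasts every nitrate point lies below every KCl point, while in whole roots at 3.5 h the nitrate points are shifted upwards and in incubated roots the transitory nitrate points (7.04 to 7.91) are the highest.

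The loci next to it in mean difference were less uniform over the populations. AT5G59540 had a mean difference of -1.20, made up of -2.16 in EpiC, -1.996 in Peri, -0.89 in LRC, -0.66 in EndoP and -0.29 in Stele. Its signal in EpiC was 8.25, 7.23 and 6.05 in transitory nitrate and 6.23, 7.70 and 6.36 in continuous nitrate, against 8.95, 9.46 and 8.98 in KCl. All nitrate arrays were below the KCl arrays there and in Peri, and the groups overlapped in the other 3 populations. AT4G23670, at -1.15, was lower by 2.53 in Peri (difference -2.53), but its difference in Stele was -0.01. In Peri its signal was 7.84, 6.36 and 5.18 in transitory nitrate and 7.76, 6.85 and 4.06 in continuous nitrate, against 9.59, 8.08 and 8.93 in KCl. The groups were apart, yet the nitrate arrays of this locus spread over more than 3 log2 units. AT4G17670 (-0.92) was apart in LRC and Peri, and AT3G26450 (-0.88) in no more than 1 population. The most negative mean, -1.50, was that of AT2G32560, whose signal in Peri was 1.91, 0.74 and 4.21 in transitory nitrate and 2.64, 2.04 and 1.07 in continuous nitrate, against 4.17, 3.74 and 4.15 in KCl. These are among the lowest values on the array, and the probe set did not pass the filter on low values, so it was not tested anywhere.

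**Figure D2:**
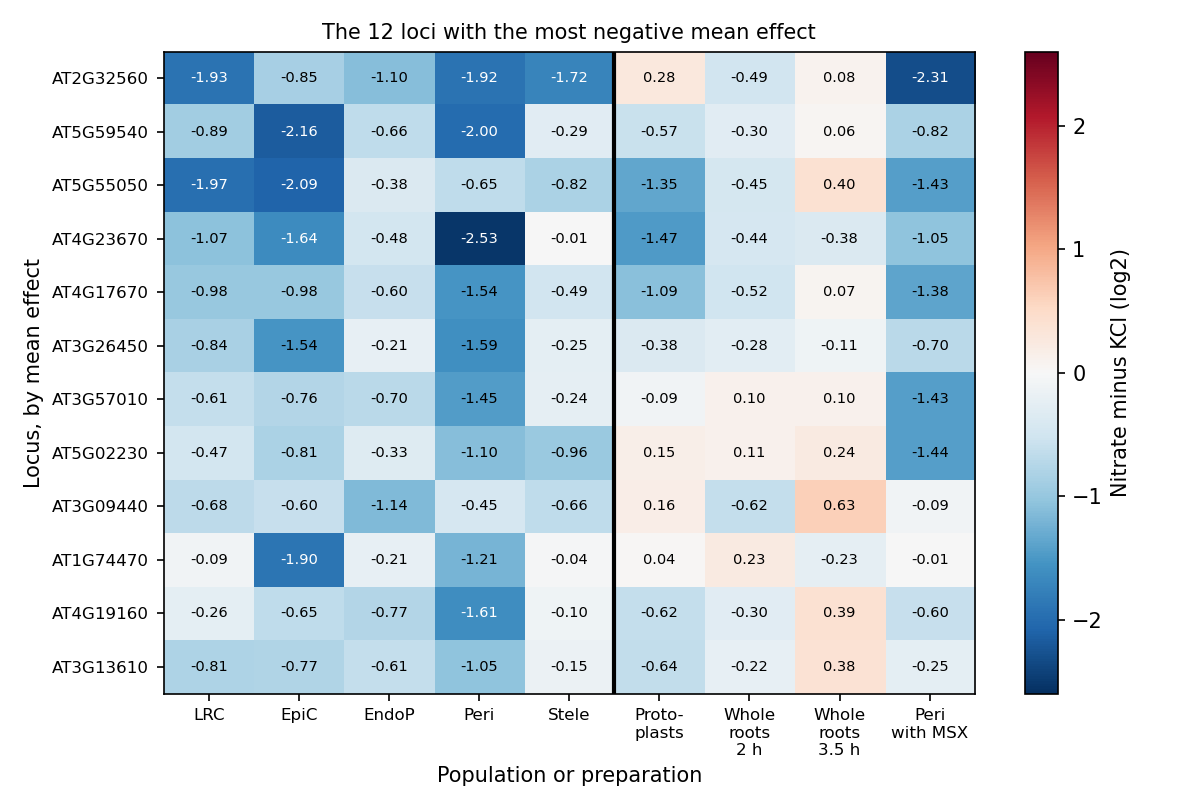
Mean log2 difference, nitrate minus KCl, for the 12 loci with the most negative mean (rows) in the 5 sorted populations that chose them (left of the black line) and in 4 comparisons on other arrays (right of it). The loci are blue throughout on the left by construction; on the right AT5G55050 has -1.35, -0.45, 0.40 and -1.43.

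The named loci each had their own profile. For geranylgeranyl reductase (AT1G74470) the difference was -1.90 in EpiC and -1.21 in Peri, but -0.09 in LRC and -0.04 in Stele. In EpiC its signal was 7.53, 6.84 and 6.85 in transitory nitrate and 6.43, 6.71 and 6.74 in continuous nitrate, against 8.13, 9.02 and 9.10 in KCl, with no overlap. F6'H1 (AT3G13610) had differences of -0.81 in LRC, -0.77 in EpiC, -0.61 in EndoP, -1.05 in Peri and -0.15 in Stele. Its mean level over the 9 arrays of a population without MSX was the most uneven of the named loci: 11.93 in EpiC and 11.32 in Peri, against 9.34 in Stele, 9.21 in EndoP and 8.74 in LRC. PosF21 (AT2G31370) had its largest differences in LRC (-0.62) and EndoP (-0.46), -0.24 in Peri, and -0.07 and -0.04 in EpiC and Stele.

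Over the 100 loci the differences were largest in Peri, with a median of -0.62, and smallest in Stele, with -0.17; the medians were -0.52 in LRC, -0.38 in EpiC and -0.28 in EndoP. Over all 11929 symbol-free probe sets the corresponding medians lay between -0.01 in Peri and 0.08 in Stele. In Peri the array signal, a trimmed mean of the unlogged values, also separated the groups, with 177 to 372 in nitrate, against 173 to 177 in KCl, all 6 nitrate arrays being above all 3 KCl arrays. In Stele it was 171 to 230 in nitrate, against 192 to 314 in KCl, and in the other 3 populations the ranges overlapped. The part of the array signal in the order of the populations was not tested. For 48 loci the largest difference was in Peri and for 41 the smallest was in Stele. The matching shares of the symbol-free probe sets are not given here, so nothing is read from these counts. The transitory median was -0.47 in EndoP, against -0.17 with continuous nitrate, while in LRC the transitory median was -0.31, against -0.65, and in Peri -0.47, against -0.76. These treatments share their KCl arrays, and in EndoP and LRC the treatment with the larger difference holds one of the arrays with the lowest rank correlations given above. Without those arrays the EndoP medians were -0.17 for both treatments, and the LRC continuous median was -0.44. Of the 100 loci, 31 were under KCl in all 10 combinations of population and treatment (0.344% of the symbol-free probe sets were), and the other 69 in 7 to 9 of them. The loci were chosen on these same arrays, so nothing is read from the distance between these shares.

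Few loci kept their nitrate and KCl arrays fully apart. All 6 nitrate arrays lay below all 3 KCl arrays for 5 loci in LRC, 12 in EpiC, 8 in EndoP, 19 in Peri and 5 in Stele, where 0.704%, 0.956%, 0.713%, 7.49% and 1.3% of the symbol-free probe sets did. The choice of the loci used these same arrays, so nothing is read from that comparison. For 64 loci the groups overlapped in every population, for 26 they were apart in 1 population, for 9 in 2, for AT5G55050 in 5, and for none in 3 or 4. The matching shares of all symbol-free probe sets are not given here, so whether these counts are unusual was not tested. Besides AT2G32560, AT5G59540, AT4G23670, AT4G17670 and AT1G74470, the 9 loci apart in 2 populations were AT4G19160 and AT4G22840 (both EndoP and Peri), AT2G38010 (EpiC and Stele) and AT1G22410 (LRC and EndoP).

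**Figure D3:**
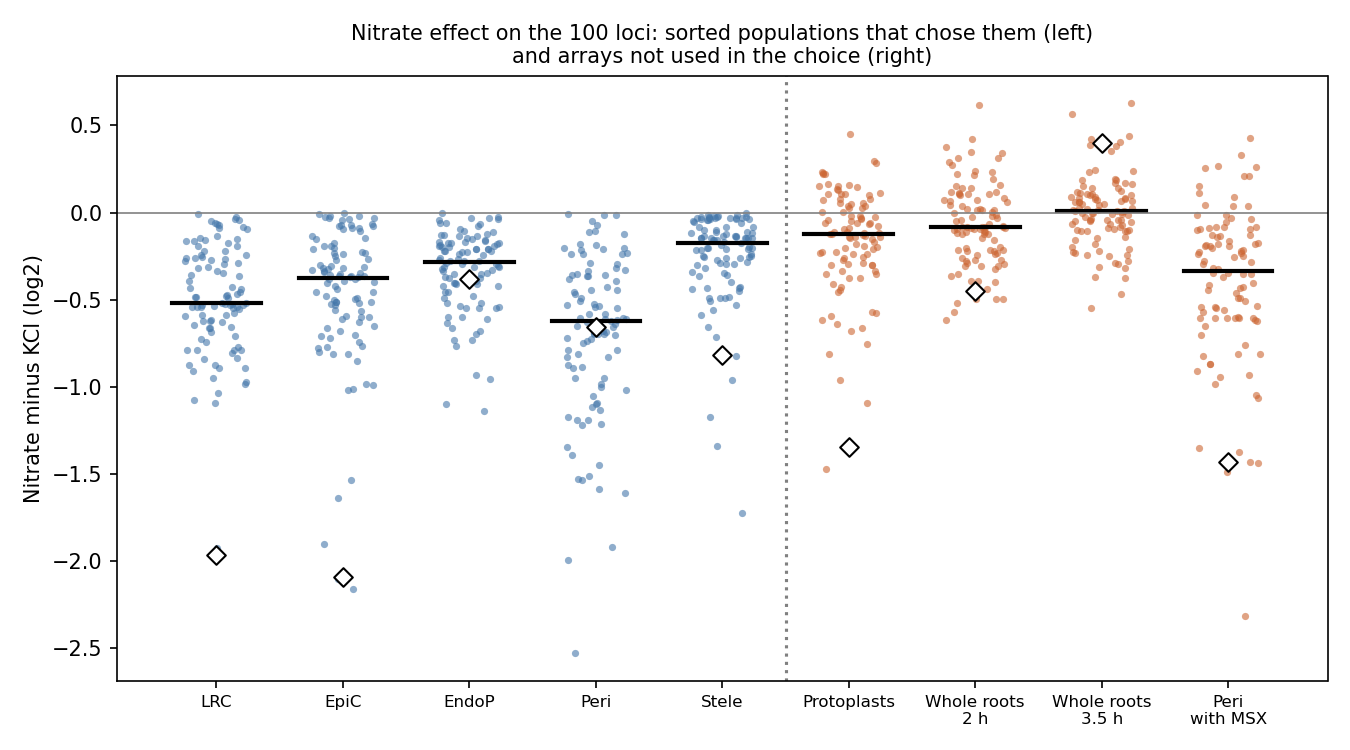
Log2 difference, nitrate minus KCl, of each of the 100 loci (points) with the median (bar) and AT5G55050 (diamond), in the 5 sorted populations whose arrays chose the loci (blue) and in 4 comparisons on arrays not used for the choice (orange). The blue medians run from -0.62 to -0.17 by construction; the orange ones are -0.12, -0.08, 0.01 and -0.34.

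Unsorted protoplasts went through the same digestion and treatments but not through sorting or two-cycle amplification, and their arrays played no part in the choice. Of the 100 loci, 69 had a lower mean in nitrate than in KCl, against 48.5% of the 16778 probe sets tested, with a median of -0.12 for the loci and 0.01 for all tested. Here and below, counts of lower loci and of loci with groups apart include loci that did not pass the filter on low values. The shares set beside them cover tested probe sets only. None of the 89 loci that could be tested passed at an adjusted p of 0.05 (limma, Benjamini-Hochberg over all tested probe sets), as was true of every probe set (0% called). At an unadjusted p under 0.05 the count was 14 loci, where 5.98% of all tested passed. For several loci given below, KCl replicate 3 was the highest of the KCl arrays. The counts of lower loci and of loci passing unadjusted are not given without that array. Array quality was read from the array signal and from the log2 distance between the 3' and 5' probe sets of GAPDH, which grows as RNA is truncated. Both overlapped between nitrate (73.0 to 84.7 and 0.54 to 2.20) and KCl (73.0 to 78.8 and 0.96 to 2.04) protoplasts. In bulk preparations such as these, fewer cells with a transcript and less of it per cell cannot be told apart.

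AT5G55050 was the locus nearest to the threshold in protoplasts. Its signal was 5.49, 5.44 and 5.00 in transitory nitrate and 4.93, 5.51 and 5.01 in continuous nitrate, against 6.44, 6.05 and 7.23 in KCl. The 6 nitrate arrays were all below the 3 KCl arrays, the lowest of which was replicate 2. The difference was -1.35 (SE 0.25, adjusted p = 0.236 in limma, and 0.0180 to 0.611 over the alternatives). It passed when KCl replicate 2 was left out (difference -1.61, adjusted p = 0.0180 in limma) or continuous nitrate replicate 2 was (-1.43, adjusted p = 0.0411). Without KCl replicate 3, the highest KCl array, the difference was -1.02, the weakest of the alternatives, and did not pass. The count of loci called lower was 3 and 1 in the 2 fits that passed, where it was 0 with all arrays. The share of all tested probe sets called in those fits is not given here, so nothing is read from these counts.

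In protoplasts 5 other loci also had all nitrate arrays below all KCl arrays: AT4G17670, AT2G38010, AT4G33040, AT3G46540 and AT1G48690, making 6 of 100, where 0.566% of the probe sets tested did. AT4G17670 was 6.25, 6.91 and 6.44 in transitory nitrate and 6.82, 6.71 and 6.24 in continuous nitrate, against 7.14, 7.42 and 8.40 in KCl, a difference of -1.09 (SE 0.35, adjusted p = 0.625 in limma). AT1G48690 was 4.91, 5.07 and 4.70 in transitory nitrate and 4.79, 4.79 and 4.76 in continuous nitrate, against 5.29, 5.08 and 5.93 in KCl, a difference of -0.60 (SE 0.16, adjusted p = 0.438). For both, the KCl arrays varied more among themselves than the nitrate arrays, and KCl replicate 3 was the highest. AT4G23670 had the most negative value, -1.47 (SE 0.51, adjusted p = 0.685), with 8.38 in KCl replicate 3 and 4.53 in KCl replicate 2, below most nitrate arrays. The neighbouring loci AT5G23830 and AT5G23840 stood at -0.96 (SE 0.31) and -0.58 (SE 0.24). F6'H1 was at -0.64 (SE 0.40) and geranylgeranyl reductase at 0.04 (SE 0.21), where its difference in EpiC was -1.90.

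Whole roots frozen after 2 h had 62 of the 100 loci with a lower mean in nitrate than in KCl, against 51.2% of all tested, and a median of -0.08. No locus was called in either direction, nor was any probe set (0% of 16778), and 1 locus passed unadjusted (1.4% of all tested), AT3G32030, named after its values were seen, which was higher in nitrate at 0.62 (SE 0.28, adjusted p = 1 in limma). The median turned to 0.08 without KCl replicate 3, leaving a single KCl array. All 3 nitrate arrays lay below both KCl arrays for 8 loci (6.03% of all tested) and above them for 4 (6.96%). AT5G55050 was among the 8, with 6.11, 5.99 and 6.04 in nitrate, against 6.23 and 6.77 in KCl. The difference was -0.45 (SE 0.33, adjusted p = 1 in limma). The KCl arrays lay farther from each other than the lower of them lay from nitrate.

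Whole roots frozen after 3.5 h had 48 of the 100 loci lower in nitrate, against 43.8% of all tested, and a median of 0.01 for the loci and 0.02 for all tested. No locus was called, nor any probe set (0% called), and 1 locus passed unadjusted (1.03% of all tested), AT2G38010, likewise named after its values were seen, which was higher in nitrate at 0.42 (SE 0.19, adjusted p = 1.00 in limma). All nitrate arrays lay below all KCl arrays for 5 loci (6.32% of all tested) and above them for 2 (7.38%). For AT5G55050 the nitrate arrays read 7.57, 7.96 and 8.36, against 7.12, 7.59 and 7.98 in KCl, a difference of 0.40 (SE 0.29, adjusted p = 1 in limma). The groups overlap. Same-numbered arrays of these 2 groups, however, deviate together (correlations of 0.725 to 0.842). With the pairs as a block 28 loci passed unadjusted (20.6% of all tested), 15 of them lower and 13 higher in nitrate, and no probe set was called after adjustment. In all 3 pairs 16 loci were lower (18.8% of all tested) and 21 were higher (24.8%), shares near or below those of all tested. AT5G55050 was higher in nitrate in each pair, by 0.45, 0.37 and 0.38, with an adjusted p of 0.0884 in that limma fit. The sign of AT5G55050 at 3.5 h is opposite to that in the sorted cells, protoplasts and roots at 2 h. The difference between its effects at 3.5 h and 2 h was 0.85 (SE 0.44, adjusted p = 1.00), and that between protoplasts and roots at 3.5 h was -1.75 (SE 0.39, adjusted p = 1), with limma over all probe sets, so neither passed. Both came from the fit without the pairs as a block, and neither was tested with the pairs.

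Roots incubated without enzymes had 66 of the 100 loci lower in nitrate (37.8% of all tested), but a single KCl array remained there and no locus was called (0% of all tested were lower, 0.00596% higher), with 9 passing unadjusted (4.33% of all tested). In these roots AT5G55050 read 7.04, 7.49 and 7.91 in transitory nitrate, 6.15, 6.09 and 5.96 in continuous nitrate, and 6.38, 6.08 and 6.75 in KCl. Replicates 1 and 2 in continuous nitrate and in KCl are the arrays that were left out. All transitory arrays were above all others, the arrays left out included. AT4G17670 was -1.68 (SE 0.57, adjusted p = 0.968 in limma). The GAPDH distance was 0.41 to 1.83 on the nitrate arrays used, against 2.49 on the remaining KCl array, and the array signal was 75.5 to 76.0 on the nitrate arrays, against 71.4 on the KCl array. The part of these in the differences was not tested.

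In Peri with MSX, where glutamine synthetase was inhibited in both groups, 87 of the 100 loci were lower with KNO3 than with KCl, against 54.9% of the 19258 probe sets tested. The median was -0.34, against -0.04 for all tested. None of the 92 loci tested was called lower (0% of all tested) or higher (0.00519%), and 12 passed unadjusted (1.42% of all tested). All 3 KNO3 arrays lay below all 3 KCl arrays for 19 loci, where 5.11% of the probe sets did, and above them for 1 (2.62%). With the values as deposited in place of quantile normalized the median was -0.15. The array signal was 175 to 289 with KNO3, against 169 to 174 with KCl, and the GAPDH distance was 3.16 to 3.84, against 4.05 to 4.40. Both measures separate the groups, and their part in these differences was not tested beyond a fit with the array signal as a covariate, in which the median was -0.31. Since the array signal separates these groups, that fit cannot tell its part from that of nitrate, and nothing is read from it. In Peri without MSX, whose arrays helped to choose the loci, the array signal was also higher on all nitrate arrays, as given above.

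Among the loci in Peri with MSX, AT5G55050 again had the smallest p. It read 6.26, 6.20 and 7.86 with KNO3, against 7.54, 7.59 and 9.48 with KCl. Replicate 3 was the highest of its group both times, and KNO3 replicate 3 alone reached the KCl range. The difference was -1.43 (SE 0.41, adjusted p = 0.887 in limma), and -0.79 without KCl replicate 3. AT5G02230 read 8.84, 8.14 and 8.82 with KNO3, against 10.50, 9.78 and 9.84 with KCl, a difference of -1.44 (SE 0.46). AT3G57010 read 8.06, 7.13 and 8.02 with KNO3, against 9.12, 8.84 and 9.54 with KCl, a difference of -1.43 (SE 0.51). AT3G14067 read 7.75, 7.14 and 7.505 with KNO3, against 8.53, 8.47 and 8.35 with KCl, a difference of -0.99 (SE 0.32). These 3 loci had no overlap between the groups and adjusted p-values that round to 1.00. AT5G02230 and AT3G57010, by contrast, stood at 0.15 and -0.09 in protoplasts.

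Set side by side, the 4 comparisons on arrays that had no part in the choice (protoplasts, whole roots at 2 h, whole roots at 3.5 h, Peri with MSX) share no samples. In all 4 of them 15 loci were lower in nitrate, against 6.33% of the probe sets tested in both protocols. They were AT4G23670, AT3G26450, AT1G59171, AT4G33040, AT4G39190, AT5G44730, AT3G14067, AT2G38300, AT5G48370, AT5G50840, AT3G51000, AT4G29270, AT3G10120, AT5G06610 and AT1G17970. A further 44 loci were lower in 3 of the 4, 33 in 2 and 8 in 1. AT5G55050 belongs to the 44. In AT4G33040 the differences were -0.68 in protoplasts, -0.49 in roots at 2 h and -1.07 in Peri with MSX, and within 0.01 of 0 in roots at 3.5 h. Averaged over protoplasts and both sets of whole roots, 69 loci were under 0 (46.8% of all tested) and none was called (0% of all tested), with 5 passing unadjusted (1.59%).

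Genes known to respond to nitrate served as a comparison on the same arrays. Of 18 listed, 5 carry a name in the annotation (PGD1 and PGD3 of the oxidative pentose phosphate pathway and the transcription factors HHO1, HHO2 and HHO3). Their median difference was 1.10 in protoplasts, 0.47 in whole roots at 2 h, -0.20 in whole roots at 3.5 h and 1.64 in Peri with MSX, and none of the 5 was called in any of these. In whole roots at 3.5 h, then, the median of the named nitrate-responsive genes had the opposite sign to that in protoplasts, while the median of the loci lay within 0.01 of that of all tested. Of 19 carbon starvation genes 4 and of 15 photosynthesis genes 12 carry a name, and none of either list was called for nitrate in those 4 comparisons.

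Glutamine, the product of the inhibited enzyme, was supplied together with KNO3 and MSX in the last Peri group. Of the 100 loci 2 were called lower with it than with KNO3 and MSX alone (0.322% of all tested) and 1 higher (0.363%). AT5G61560 read 6.94, 6.91 and 7.02 with Gln, against 9.57, 8.86 and 7.44 without it. The Gln arrays were all lower and lay close together, while the arrays without Gln were far apart, and the difference was -1.67 (SE 0.40, adjusted p = 0.0294 in limma). AT4G19160 read 6.85, 7.80 and 7.84 with Gln, against 9.28, 8.47 and 8.56 without it, a difference of -1.27 (SE 0.31, adjusted p = 0.0371). AT5G44730 went the other way, with 7.62, 7.98 and 8.09 with Gln, against 6.25, 6.02 and 6.59 without it, a difference of 1.61 (SE 0.37, adjusted p = 0.0240). For all 3 loci the groups did not overlap. None of the 3 calls held without KNO3 with MSX replicate 1 or 2, without Gln replicate 1 or 3, or with only the compared arrays in the fit. Over the alternatives the adjusted p in limma was between 0.00179 and 0.403 for AT5G61560, 0.00879 and 0.392 for AT4G19160, and 0.00868 and 0.147 for AT5G44730.

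**Figure D4:**
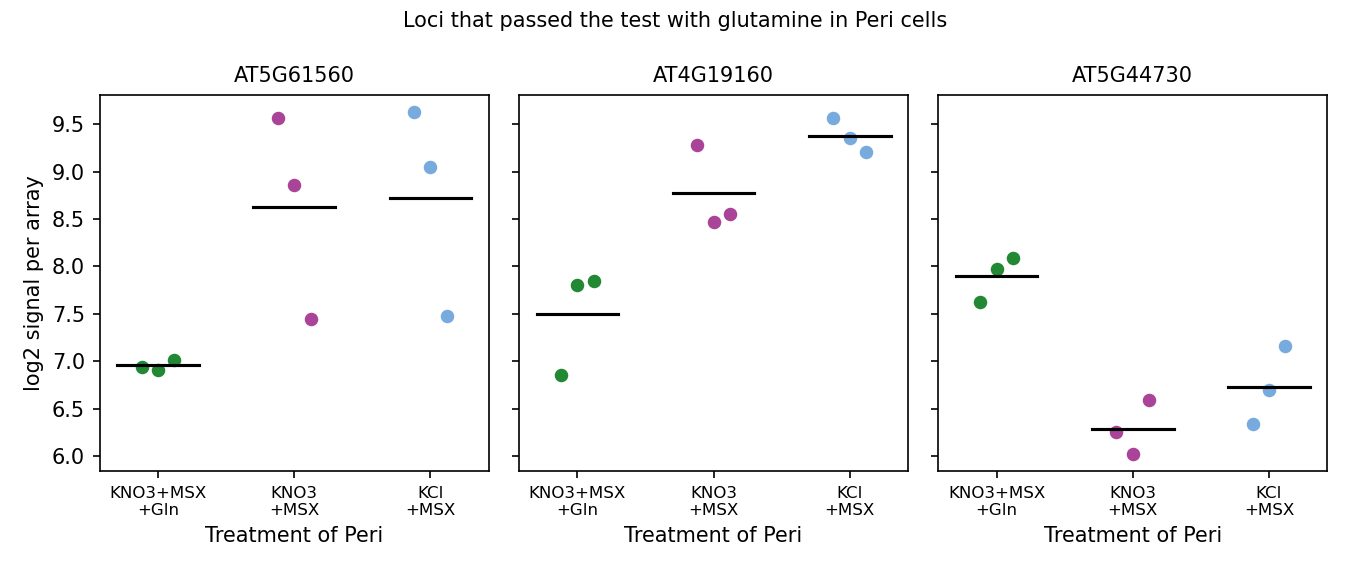
Signal (log2) of the 3 loci called between Peri cells with and without glutamine, on the 3 arrays of each group (points) with the group mean (bar). AT5G61560 and AT4G19160 are lower with glutamine and AT5G44730 is higher; without glutamine AT5G61560 spreads between 7.44 and 9.57.

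F6'H1 was widely separated in the same comparison, though not called. It read 10.79, 10.43 and 10.65 with Gln, against 12.49, 12.35 and 12.27 without it, a difference of -1.75 (SE 0.52, adjusted p = 0.101 in limma). With KCl and MSX it read 12.79, 12.43 and 12.65, so that nitrate with MSX stood at a difference of -0.25 (SE 0.52). Over the 100 loci 62 were lower with Gln, against 52.1% of all tested, the median was -0.20, and 18 passed unadjusted (12.7% of all tested). All Gln arrays were below all arrays without Gln for 19 loci (9.57% of all tested) and above them for 4 (8.41%). AT5G55050 was 7.41, 7.31 and 7.19 with Gln, between the arrays without it, a difference of 0.53 (SE 0.41, adjusted p = 0.669). The GAPDH distance was 3.97 to 5.33 with Gln, against 3.16 to 3.84 without it, which separates the groups, and the array signal was 188 to 211, against 175 to 289. The part of RNA quality in these calls was not tested.

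Transitory and continuous nitrate were compared directly over the 5 populations, a contrast that the choice of the loci did not use. None of the loci was called (0% of all tested) and 2 passed unadjusted (0.95% of all tested). In all, 45 loci were lower in the transitory treatment (50.9% of all tested), and the median was 0.03. The smallest p-values belonged to AT3G26070, at 0.37 (SE 0.16), and AT1G04350, at 0.32 (SE 0.15), both higher in the transitory treatment, with adjusted p-values of 1.00 in limma.

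The level of the loci differed among the sorted populations about as often as that of other genes. By an F test over 5 populations 66 of 92 loci were called, against 64.3% of all tested. Over the 9 arrays of each population without MSX, the highest mean level was in EpiC for 28 loci, in LRC for 25, in Peri for 23, in Stele for 15 and in EndoP for 9. AT5G55050 averaged 7.65 in EpiC and 7.55 in LRC, then 6.61 in Peri, 6.39 in EndoP and 6.27 in Stele (adjusted p = 6.29e-07 in limma). EpiC and LRC lay closer to each other than to the inner populations.

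Protoplasts were also compared with whole roots at 3.5 h, which ran for about as long without digestion. RNA came from columns for protoplasts and from TRIzol for whole roots, so digestion and extraction cannot be told apart. Of the loci 26 were lower in protoplasts (17.6% of all tested were) and 5 were higher (17.4%). In all, 59 were under 0, against 46% of all tested, with a median of -0.09, against 0.04. AT5G55050 had the smallest p, with the 9 protoplast arrays between 4.93 and 7.23, against 7.12 to 8.36 on the 6 root arrays, a difference of -1.86 (SE 0.19, adjusted p = 5.00e-06 in limma). A single protoplast array, KCl replicate 3, reached the range of the roots.

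The most negative differences between protoplasts and whole roots belonged to AT4G23670 at -2.23 (SE 0.39) and AT5G12420 at -2.11 (SE 0.26). AT5G12420, the last locus inside the limit, read 5.27, 4.83 and 4.75 in transitory nitrate, 4.33, 5.00 and 4.31 in continuous nitrate and 4.95, 4.63 and 7.10 in KCl in protoplasts, against 7.28, 7.11 and 7.69 in nitrate and 7.15, 7.21 and 7.16 in KCl in whole roots. Again KCl replicate 3 stood above the other protoplast arrays, and the other KCl arrays lay within the range of the nitrate arrays. The nitrate difference of AT5G12420 in protoplasts, -0.81 (SE 0.34), therefore depends on that array. AT4G24130 (-0.94, SE 0.11), AT2G38010 (-1.04, SE 0.13), AT1G06640 (-1.47, SE 0.22) and AT3G26450 (-1.42, SE 0.25) were also lower, as were both neighbours AT5G23830 (-0.98, SE 0.24) and AT5G23840 (-0.66, SE 0.18) and F6'H1 (-0.90, SE 0.31). The loci called higher in protoplasts were AT2G23910 at 0.68 (SE 0.20), AT5G50840 at 0.65 (SE 0.12), AT3G57010 at 0.51 (SE 0.17), AT5G61560 at 0.41 (SE 0.13) and AT4G32460 at 0.34 (SE 0.13). AT4G32460 kept its call in 8 and AT3G57010 and F6'H1 in 15 of 21 alternatives. All 3 loci called with glutamine were also called here: AT4G19160 (-1.14, SE 0.26) and AT5G44730 (-0.83, SE 0.17) were lower in protoplasts, and AT5G61560 was higher.

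**Figure D5:**
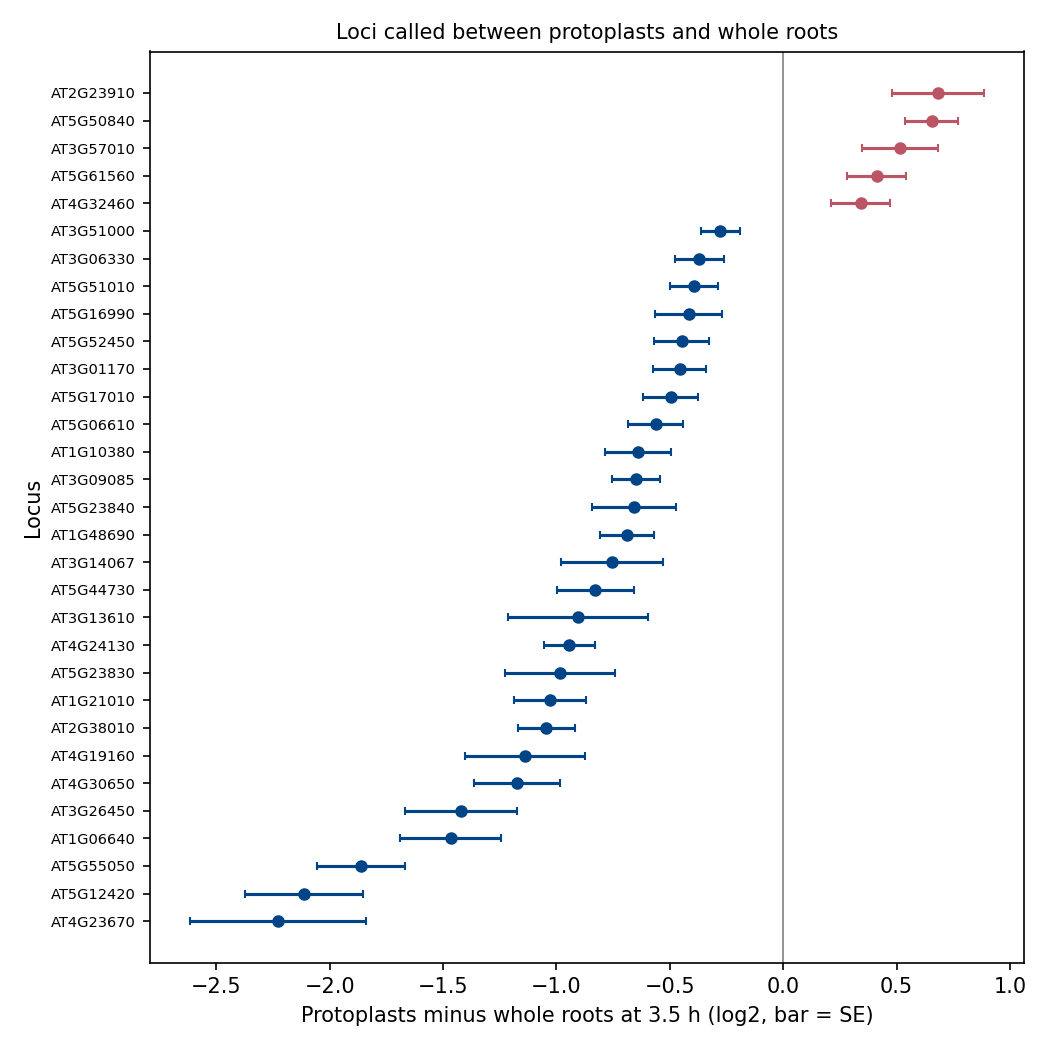
Log2 difference, protoplasts minus whole roots at 3.5 h, with SE (bars), of the 31 loci called at an adjusted p under 0.05, higher loci at the top. The 26 lower loci reach -2.23, while the 5 higher ones stay below 0.69.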

How the data were processed

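The deposited tables hold log2 signals per probe set on ATH1 arrays; per the labels' protocols, RNA of sorted cells was labelled by the two-cycle and that of protoplasts and whole roots by the one-cycle protocol. The software behind the signals is not given in the sources used here, and the authors' log2 values are taken as deposited. Replicates are labelled biological.

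The members and gene lists were chosen with earlier results of these data known. Loci named with values were AT5G55050, the 12 with the most negative mean difference, those at the limit of the 100, those called in a test (up to 10 lower and 5 higher, by adjusted p), and listed genes; others were chosen after their values were seen. Symbols came from GEO's platform annotation (13513 probe sets with 1 gene, 503 with several) and synonyms from RefSeq. No sequences are shown.

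Sorted arrays were quantile normalized. Each protocol was fitted once with limma 3.58.1 in R 4.3.3, 1 coefficient per group, with a mean-variance trend; 64 control probe sets and probe sets not above the 40th percentile in at least 3 arrays were left out. P-values were adjusted by Benjamini-Hochberg at 0.05. The script was tested on simulated data. Figures used Python 3.11.15 and matplotlib 3.10.9.

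Replicate numbers are shared by the groups. Deviations of same-numbered arrays correlated at over 0.1 in every pair between nitrate and KCl in whole roots at 3.5 h (0.725 to 0.842) and between transitory and continuous nitrate in Peri (0.273 to 0.424), but in no other pair of groups compared. Alternatives were another normalization, all arrays, fewer arrays, no filter, the replicate block, the array signal as a covariate, and leaving out each array. The block with only the whole roots at 3.5 h and the population medians without the 2 sorted arrays of lowest correlation were chosen after seeing the data.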

Additional observations from a re-analysis of the deposited data

Results flagged for a closer look

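AT5G46230 was higher in nitrate on all arrays of whole roots at 2 h (6.89, 6.72 and 6.63, against 6.40 and 6.62 in KCl, a difference of 0.24) and lower on all arrays at 3.5 h (6.59, 6.15 and 6.46, against 6.59, 6.72 and 6.99 in KCl, a difference of -0.37). The difference between these effects, -0.61, did not pass (adjusted p = 1.00, limma over all probe sets). That fit did not use the pairs of arrays at 3.5 h. Groups of 3 arrays are too small for a test of single arrays that stand apart.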

How the results depend on the processing

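The choice of the 100 loci depends on the processing: 37 were chosen again from the values as deposited, 47 from the transitory and 52 from the continuous treatment alone, and 59 (without Stele in KCl replicate 3) to 98 when 1 array was left out. In protoplasts 0 to 3 loci were called lower when 1 array was left out. In whole roots at 2 h the median ran from -0.19 to 0.0795 (without KCl replicate 3). Loci called higher in protoplasts than in whole roots numbered 3 with all 30 one-cycle arrays and 2 to 8 with 1 array left out (2 without protoplasts in KCl replicate 2 or whole roots in nitrate replicate 2, 8 without protoplasts in transitory nitrate replicate 1). With Gln, 4 were called lower with values as deposited, 5 without the 2 sorted arrays of lowest correlation, and 1 with only the compared arrays (0 higher). The count was 4 lower with the replicate block and 7 lower with the array signal as a covariate. With 1 array left out, 0 to 4 were called lower and 0 to 1 higher. The cause was not tested. Shares of all tested probe sets called under these alternatives are not given here. Whether the counts of calls in this paragraph follow the calls on the whole array was not tested. The block moved no other count of calls by over 1.5 times; with whole roots at 3.5 h alone it left 0 calls. Of 565 alternative counts and medians, 536 stayed within 1.5 times the count or within the spread between arrays. Of 1970 values of single loci, 45 lost and 14 gained the call, and none was called with the opposite sign. Scan dates could not be used as a block. Where a single array remained in a group, its spread was taken from the other groups.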
